A study of Arabidopsis thaliana with 12 samples.

Results

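The beta-expansins and expansin-like genes of Arabidopsis thaliana were described in roots and shoots of seedlings. They were taken as every probe set that the array annotation links to exactly 1 gene and whose symbol begins with EXPB, EXLA or EXLB. The rule found 9 of the 16722 single-gene probe sets, 1 for each of 9 genes: 5 beta-expansins (EXPB1 to EXPB5), 3 expansin-like A genes (EXLA1 to EXLA3) and 1 expansin-like B gene (EXLB1). All 9 were found by gene number in the reference annotation. Of the other genes that the reference counts among these families, EXPB6 and EXLB3 (named PNP-A) were not analysed here, and EXLB2 was measured under its locus name, AT4G30380.

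The study measured total RNA on 12 Affymetrix Arabidopsis Gene 1.0 ST arrays, 3 in each of 4 groups: root and shoot of the wild type, the accession Wassilewskija-4, and root and shoot of a line labelled aladin, whose wild type is that accession. All seedlings had grown for 10 days on vertical agar plates with 1% sucrose, 16 h of light and 20 °C after 3 days of stratification, and no group had a further treatment. The allele, its insertion site and the number of independent lines are not given in the labels. The replicates are labelled biological, but whether each came from its own plate or pool of plants is not stated, so p values measure the spread between these samples. Each array is called a library here. Values are RMA signals on the log2 scale, so a difference of 1 is 2-fold. The signal of ALADIN (AT3G56900), a nuclear pore gene, was higher in the libraries labelled aladin, by 4.29 in root (SE 0.07) and 4.65 in shoot (SE 0.07), and each direction below is therefore that of the libraries so labelled.

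Expansins are secreted proteins that loosen plant cell walls without cutting their polymers, which lets turgor stretch the wall as cells grow. Alpha-expansins act at acid pH on the walls of most land plants. Beta-expansins share their two-part structure, with a front domain that resembles a family of endoglucanases and a rear domain that binds polysaccharide, and the best known are the pollen allergens of grasses. The expansin-like A and B proteins carry both domains as well, but loosening of walls has not been assigned to them, and their roles are less well known.

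Median signals per library lay between 5.86 and 6.0, and Pearson's r within groups was 0.990 to 0.993 in root and 0.983 to 0.987 in shoot. The table holds no detection calls. A probe set was called dim where its mean over the 12 libraries lay under the lower quartile of the table, 4.097. EXPB4 (mean 3.17) and EXLA3 (mean 3.49) were dim. The other 7 members lay between the 35.7 and 92.8 percentiles of all probe sets. Groups are compared within a probe set, or over the same probe sets of a list. The percentiles and the limit for dim probe sets describe brightness only, since the brightness of different probes does not rank their genes.

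The first question was where each gene is expressed. In the wild type, 3 beta-expansins were higher in root than in shoot, and EXLA2 was lower in root. EXPB1 had signals of 9.82, 9.77 and 9.77 in wild-type root and of 6.56, 6.74 and 6.39 in wild-type shoot. The difference was 3.22 (SE 0.15, 9.35-fold, 95% interval 2.91 to 3.54, limma adjusted p = 1.8e-09). Every root library lay at least 3.02 above every shoot library. EXPB3 read 11.2, 11.14 and 11.23 in wild-type root against 8.95, 9.23 and 8.8 in wild-type shoot, again with wide separation. Its organ difference was 2.19 (SE 0.12, 4.58-fold, adjusted p = 7.6e-09).

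EXPB2 was the third beta-expansin that was higher in wild-type root, and by less. Its signals were 6.51, 5.71 and 6.11 in root and 5.27, 5.2 and 4.87 in shoot, so that the organs did not overlap. The difference was 1.00 (SE 0.17, 2.00-fold, adjusted p = 2.9e-04). EXLA2, whose loss is known to alter resistance of Arabidopsis to a necrotrophic fungus, was the member lower in wild-type root, with 7.17, 6.94 and 7.02 against 7.58, 7.31 and 7.65 in shoot. The root signals all lay under the shoot signals, and the difference was -0.47 (SE 0.14, adjusted p = 0.0120).

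In the wild type 4 of the 9 members thus passed between the organs, by limma at an adjusted p of 0.05, 3 of them higher in root. Over all 17481 tested probe sets 58.8% passed this comparison, 31.9% higher in root and 26.9% lower, so the members' share is no larger than the background. EXLA1 (-0.40, adjusted p = 0.0666), EXLA3 (0.33, adjusted p = 0.115), EXPB5 (-0.27), EXLB1 (-0.09) and EXPB4 (0.01) did not pass. EXLA1 passed in 6 of 21 alternatives, among them both other scalings (adjusted p = 0.0341 and 0.0376) and the fits that left out wild-type shoot replicate 3 (0.0291) or aladin shoot replicate 2 (0.0342), and EXLA3 passed in 1, a second quantile normalization (0.51, adjusted p = 0.0201).

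**Figure D1:**
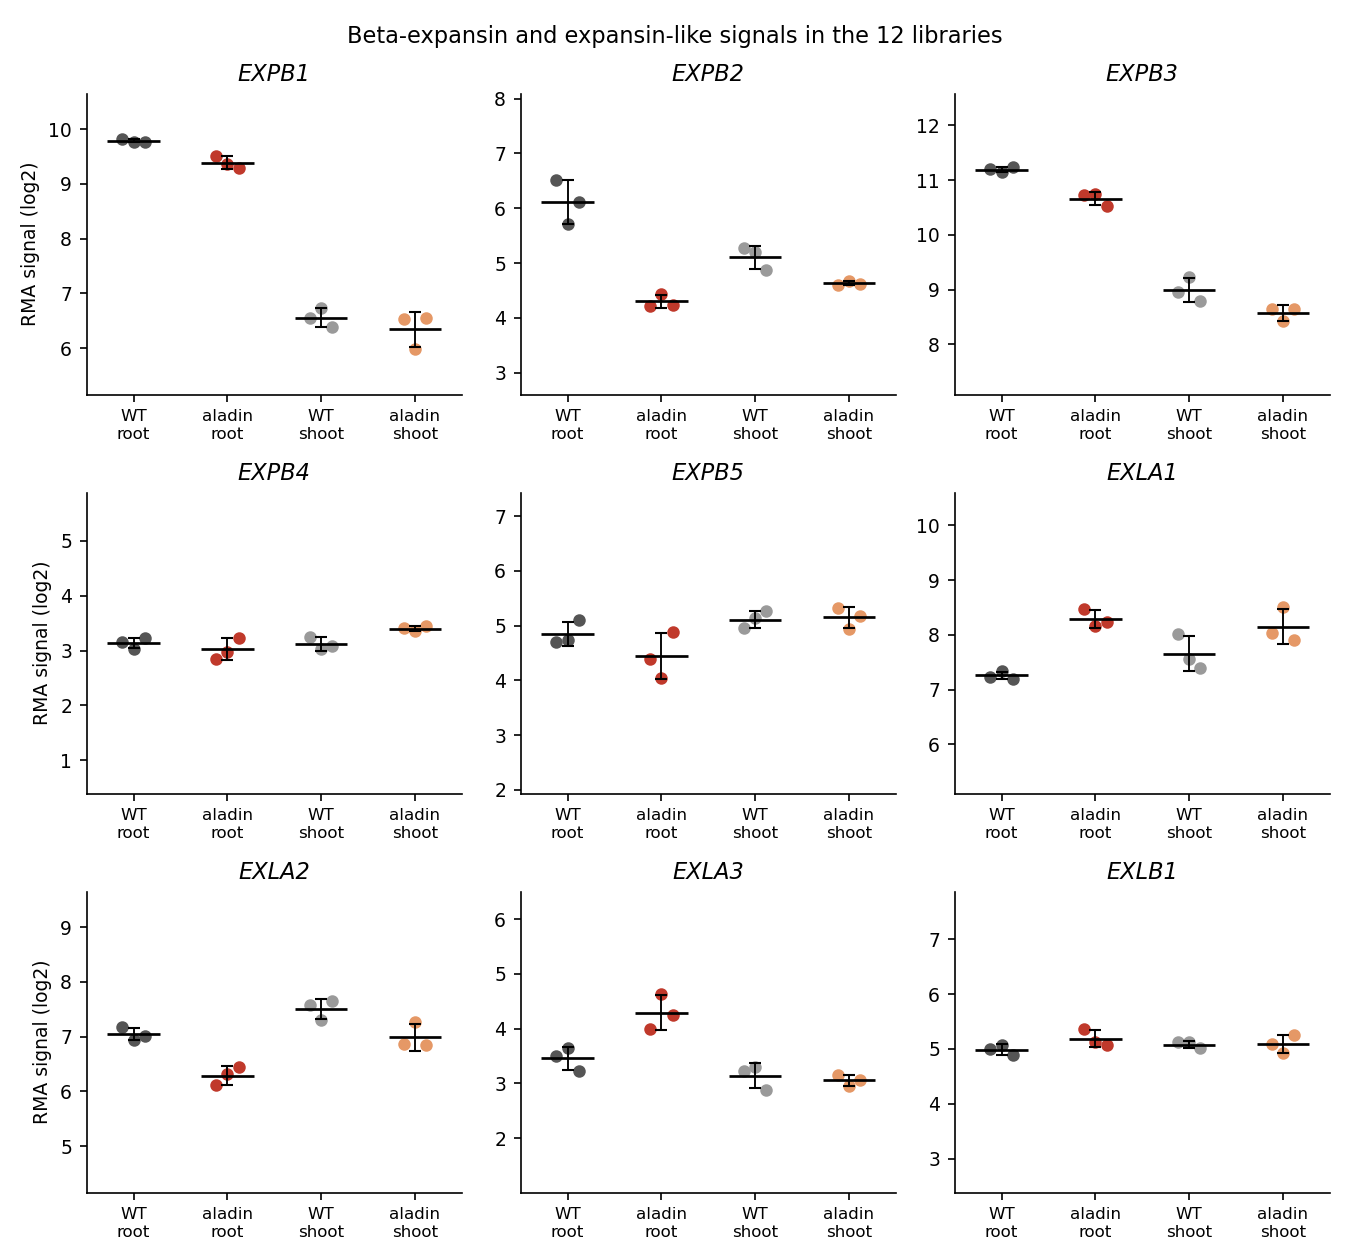
RMA signal (log2, vertical axis) of the 9 genes in the 12 libraries, 1 panel per gene, with every panel spanning the same number of log2 units. Points are libraries, horizontal bars group means and error bars 1 SD (n = 3). EXPB1 and EXPB3 separate by organ, and EXPB2 is highest in wild-type root and lowest in root labelled aladin.

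The second question was which of the genes differ between the genotypes in root. There 3 members fell in the libraries labelled aladin (EXPB2, EXPB3 and EXLA2) and 2 rose (EXLA1 and EXLA3). The count of 5 of 9 passed by limma stands beside 7.64% of all tested probe sets, with 4.63% higher and 3.01% lower. The median root difference of the 9 was -0.40, against -0.04 over all tested probe sets. The groups did not overlap for 6 of the 9, where 31.7% of all probe sets did not overlap. The family was chosen with earlier results of these data known, so these shares describe it and are no test of it. A lower signal in an organ sample may reflect fewer cells of a type or less RNA per cell, and these cannot be told apart here.

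EXPB2 had the largest change of the family. Against wild-type root signals of 6.51, 5.71 and 6.11, the root libraries labelled aladin gave 4.22, 4.44 and 4.24. Every one of them lay at least 1.27 under the lowest wild-type library, and they were close to each other (SD 0.12, against 0.40 in wild type). EXPB2 fell by 1.81 (SE 0.17, 3.51-fold lower, 95% interval 2.71-fold to 4.54-fold, adjusted p = 4.6e-05). Only 6 of the 17481 tested probe sets had a more negative root difference. Its group mean in root labelled aladin, 4.3, was near the limit of 4.097 used for dim probe sets.

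EXPB3 fell by less, from signals of 11.2, 11.14 and 11.23 to 10.72, 10.74 and 10.53. The groups were 0.40 apart at their nearest libraries. The difference was -0.53 (SE 0.12, 1.44-fold lower, adjusted p = 0.0152), and the call ended without wild-type root replicate 1 (adjusted p = 0.0539), wild-type root replicate 3 (0.0624) or aladin root replicate 3 (0.0701). EXPB1 had a root difference of -0.40 (SE 0.15, 95% interval -0.72 to -0.08, adjusted p = 0.137), with 9.5, 9.37 and 9.29 in the libraries labelled aladin. Its groups did not overlap either, and it passed without aladin shoot replicate 2 (0.0326), with array weights (0.0251) and in a fit on root alone (0.0206).

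The other beta-expansins did not pass in root. EXPB5 read 4.7, 4.74 and 5.1 in wild type and 4.39, 4.05 and 4.88 in the libraries labelled aladin, which overlapped, with a difference of -0.41 (95% interval -0.83 to 0.01, adjusted p = 0.260). The dim EXPB4 had a difference of -0.12 (95% interval -0.35 to 0.12). The root differences of all 5 beta-expansins were negative, where the median over all tested probe sets was -0.04 too. The intervals of EXPB4 and EXPB5 held both signs. The 2 beta-expansins past the threshold stand beside 3.01% of all tested probe sets that passed and were lower in root.

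The expansin-like A genes went in both directions. EXLA1 read 7.23, 7.34 and 7.19 in wild-type root and 8.48, 8.17 and 8.23 in root labelled aladin, which put the groups 0.83 apart. EXLA1 rose by 1.04 (SE 0.18, 2.05-fold, 95% interval 1.57-fold to 2.68-fold, adjusted p = 0.0031). EXLA3 read 3.51, 3.65 and 3.23 against 4.0, 4.63 and 4.25, so that it was dim in all 3 wild-type libraries and in 1 labelled aladin. EXLA3 rose by 0.83 (SE 0.17, 1.78-fold, adjusted p = 0.0092), without overlap between the groups. EXLA2 fell, from 7.17, 6.94 and 7.02 to 6.11, 6.31 and 6.44, by 0.76 (SE 0.14, 1.69-fold lower, adjusted p = 0.0050), and its nearest libraries were 0.51 apart.

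EXLB1 varied little in root, with 5.0, 5.08 and 4.89 in wild type and 5.36, 5.13 and 5.07 in those labelled aladin. The difference was 0.20 (95% interval -0.04 to 0.43, adjusted p = 0.356), and its groups overlapped. EXLB2, which the rule does not include, had a root difference of -0.09 (adjusted p = 0.869) and a shoot difference of 0.05 (adjusted p = 0.926).

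**Figure D2:**
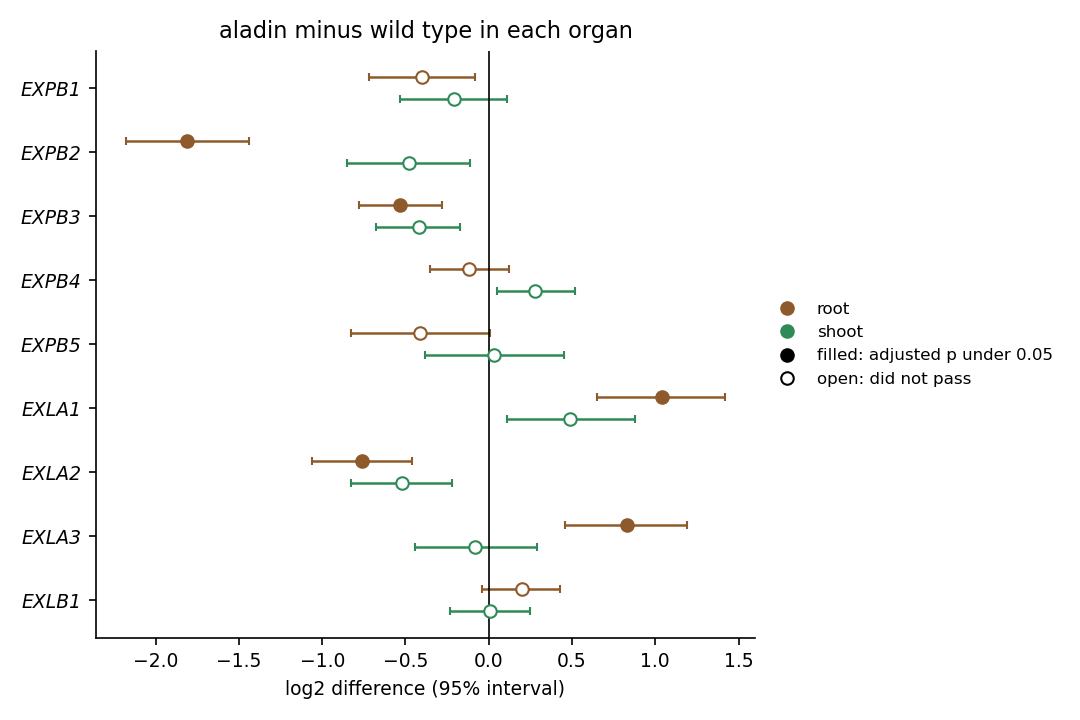
Difference of the libraries labelled aladin minus wild type (log2, horizontal axis) for each gene in root (brown) and shoot (green), with 95% intervals from limma and 3 libraries per group. Filled points passed an adjusted p of 0.05: EXPB2 (-1.81), EXLA2 (-0.76), EXPB3 (-0.53), EXLA3 (0.83) and EXLA1 (1.04), all in root.

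The calls of EXPB2, EXLA1 and EXLA2 in root held at an adjusted p of 0.05 in each of their 23 alternatives and that of EXLA3 in each of its 22. The adjusted p of EXPB2 ran from 2.6e-06 to 0.0015, that of EXLA1 from 2.9e-04 to 0.0165, that of EXLA2 from 5.9e-04 to 0.0396 and that of EXLA3 from 0.0013 to 0.0474. The highest value of EXLA3 came without wild-type root replicate 3. The sign of the root difference was the same for all 9 members in every alternative.

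**Figure D3:**
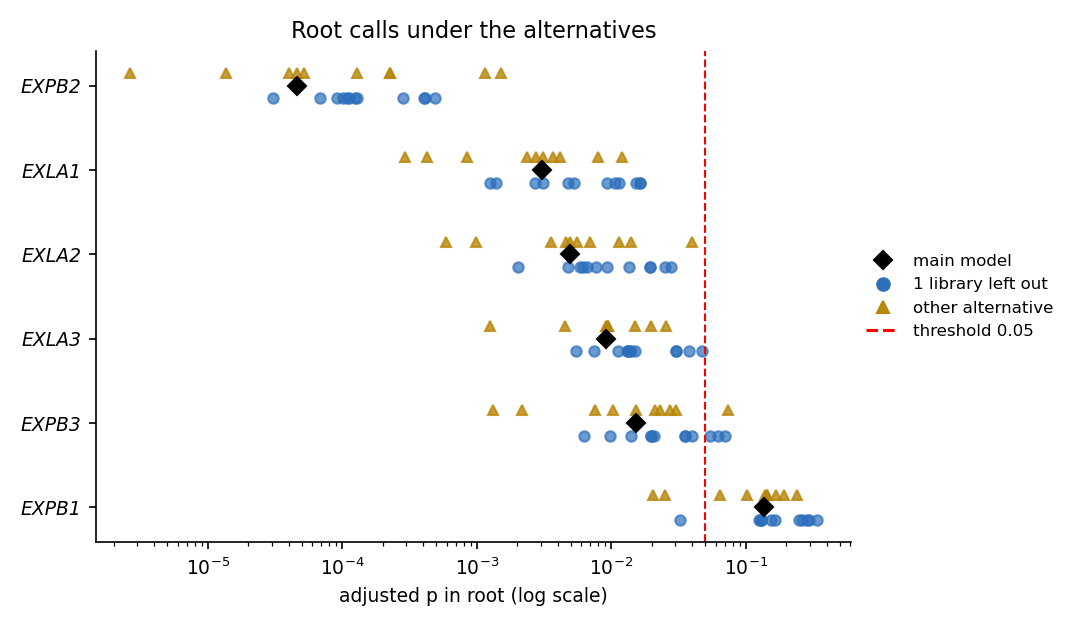
Adjusted p of the genotype difference in root (horizontal axis, log scale) for 6 genes. The diamond is the main model, circles leave out 1 library each, triangles are the other alternatives, and the dashed line marks 0.05. EXPB2 stays at or under 0.0015, while EXPB3 crosses the line with up to 0.0742 and EXPB1 ranges from 0.0206 to 0.337.

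The third question was whether the genes differ between the genotypes in shoot. None of the 9 passed there by limma, beside 2.96% of all tested probe sets (1.49% higher and 1.47% lower), while 5 of the 9 had an unadjusted p under 0.05, beside 17.5% of all. The nearest to the threshold was EXLA2, with 7.58, 7.31 and 7.65 in wild type and 6.86, 7.27 and 6.84 in the libraries labelled aladin, which were 0.04 apart at their nearest. Its shoot difference was -0.52 (SE 0.14, adjusted p = 0.0694), and it passed with a trend and robust prior (0.0315) or once aladin shoot replicate 2 was left out (-0.67, adjusted p = 0.0244).

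EXPB3 showed a similar pattern in shoot, with 8.95, 9.23 and 8.8 against 8.65, 8.42 and 8.65. The difference was -0.42 (SE 0.12, adjusted p = 0.0792), and it passed with a trend and robust prior (0.0168) or once wild-type shoot replicate 3 was left out (-0.52, adjusted p = 0.0495). EXPB2 read 5.27, 5.2 and 4.87 in wild-type shoot and 4.6, 4.67 and 4.62 in shoot labelled aladin. Those groups did not overlap, and the difference was -0.48 (SE 0.17, 95% interval -0.85 to -0.11, adjusted p = 0.168). EXLA1 had overlapping shoot groups, 8.02, 7.56 and 7.4 against 8.03, 8.51 and 7.91, with a difference of 0.49 (95% interval 0.11 to 0.88, adjusted p = 0.171).

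Of the remaining members in shoot, the dim EXPB4 had a difference of 0.28 (adjusted p = 0.196), with wild-type signals of 3.25, 3.03 and 3.08 under all those labelled aladin, 3.41, 3.35 and 3.45. EXPB1 (-0.21), EXLA3 (-0.08), EXPB5 (0.03) and EXLB1 (0.01) had adjusted p values from 0.502 to 0.975, and their groups overlapped. Limma uses 1 estimate of the spread for both organs, while the libraries within a group were less alike in shoot. In a fit on shoot alone the adjusted p of EXLA2 was 0.248 and that of EXPB3 0.298.

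The fourth question was whether the genotype differences themselves differ between the organs. EXPB2 was the only member to pass this test, 1 of 9 beside 2.15% of all probe sets, with 1.43% higher and 0.715% lower. Its root difference minus its shoot difference was -1.33 (SE 0.24, 95% interval -1.86 to -0.80, adjusted p = 0.0155). The EXPB2 call ended in a limma fit with the replicate number as a block within each organ (-1.33, adjusted p = 0.0602). It held whichever library was left out (adjusted p up to 0.0447). EXLA3 had a difference of effects of 0.91 (SE 0.24, adjusted p = 0.0796) and passed without aladin root replicate 1 (1.05, adjusted p = 0.0466). For EXLA1 the difference of effects was 0.54 (95% interval 0.00 to 1.09, adjusted p = 0.355). The remaining 6 members had differences of effects between -0.44 and 0.19, with adjusted p values from 0.241 to 0.859.

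The order of the 4 groups differed between the genes. EXPB2 had the order wild-type root, wild-type shoot, shoot labelled aladin, root labelled aladin, and no 2 neighbours in this order overlapped, their gaps being 0.45, 0.20 and 0.16. In the line labelled aladin its root signals lay under its shoot signals, with an organ difference of -0.33 that did not pass (95% interval -0.70 to 0.04, adjusted p = 0.111) where the wild type had 1.00. It passed once wild-type root replicate 1 (0.0482) or 2 (0.0489) was left out. Those libraries are outside this comparison, so the difference stayed at -0.33. Only the shared estimate of the spread and the adjustment of p changed. EXPB3 had the order wild-type root, root labelled aladin, wild-type shoot, shoot labelled aladin, with no overlap between neighbours and a largest gap of 1.29 between the organs. EXPB1 had that order too, with a gap of 2.55 between the organs, and its shoot groups overlapped.

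For EXLA1 the order was root labelled aladin, shoot labelled aladin, wild-type shoot, wild-type root, and only the last neighbours did not overlap, by 0.06. EXLA2 ran from wild-type shoot through wild-type root and shoot labelled aladin, which overlapped, to root labelled aladin, which lay 0.40 under the next group. EXLA3 was highest in root labelled aladin, 0.35 above wild-type root. Wild-type shoot and then shoot labelled aladin followed, each overlapping with the group before it. Wild-type root (3.23 to 3.65) and shoot labelled aladin (2.95 to 3.16) did not overlap. EXPB4 was highest in shoot labelled aladin, by 0.13, and its other groups overlapped. Neighbouring groups of EXPB5 and of EXLB1 overlapped throughout.

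Between root and shoot of the line labelled aladin 6 of 9 members passed, beside 62.1% of all tested probe sets, with 33.2% higher in root and 28.8% lower. EXPB1 (3.04, adjusted p = 3.2e-09), EXPB3 (2.09, adjusted p = 1.2e-08) and EXLA3 (1.23, SE 0.17, adjusted p = 4.3e-05) were higher in root. EXLA2 (-0.70, adjusted p = 8.5e-04), EXPB5 (-0.71, adjusted p = 0.0067) and the dim EXPB4 (-0.39, adjusted p = 0.0079) were lower in root. The call of EXPB4 ended with a second quantile normalization (-0.20, adjusted p = 0.164). The organ comparisons of the 2 genotypes share no library, and the test that sets them against each other is that of the difference of effects given above.

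**Figure D4:**
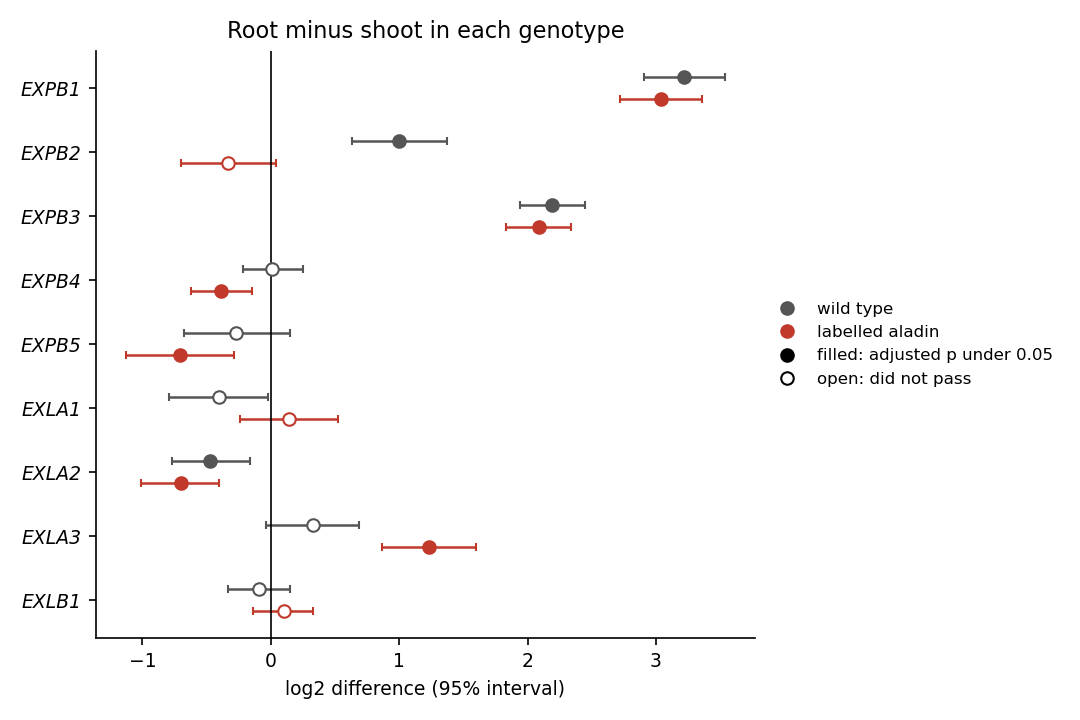
Root minus shoot (log2, horizontal axis) for each gene in the wild type (grey) and in the line labelled aladin (red), with 95% intervals from limma and 3 libraries per group. Filled points passed an adjusted p of 0.05. EXPB1 and EXPB3 are far to the right in both genotypes, and EXPB2 lies at 1.00 in the wild type and at -0.33 in the line labelled aladin.

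Members of the family varied together in part. With the mean of each organ subtracted, Pearson's r over the 12 libraries was 0.88 between EXPB1 and EXPB3, 0.83 between EXPB2 and EXPB3 and 0.85 between EXPB2 and EXLA2. EXLA1 ran against these, with r of -0.83 to both EXPB2 and EXPB3 and -0.75 to EXLA2, while EXLA1 and EXLA3 had r of 0.63. EXPB4 had r between -0.35 and 0.47 to the other members. All of these values share the genotype difference and the libraries, and they are given as a description only.

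The genes whose pattern was most like that of EXPB2 on the same measure were AT1G01630 (r = 0.966), AT5G12470 (0.964), AT5G14650 (0.964) and AT5G42500 (0.952). Their root differences were -0.27, -0.40, -4.73 and -1.05, so likeness of pattern did not mean likeness of size. For EXLA1 they were AT1G53430 (0.960), AT1G74450 (0.960), AT5G01710 (0.957) and AT3G10300 (0.947), with root differences from 0.45 to 1.27. For EXLA2 they were AT1G78260 (0.961), AT1G11660 (0.953), AT5G17070 (0.947) and AT1G77270 (0.947), with root differences from -0.57 to -0.15.

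In the order of genes in the reference annotation, EXLA3 and EXLA1 lie next to each other on chromosome 3, and both rose in root. The nearest measured genes beyond the pair, AT3G45950 (root difference -0.02, adjusted p = 0.985) and AT3G45990 (0.09, adjusted p = 0.836), did not pass. At its other end EXLA1 overlaps slightly with a histone gene, HTB9, and the probe positions were not part of the annotation used. EXPB2 lies beside EXPB6, and whether its probes also read that gene was not tested. Its nearest measured neighbours were FRA3, an inositol phosphatase gene (root 0.08, adjusted p = 0.762), and AT1G65690, which did not pass in root (0.16, adjusted p = 0.687) and rose in shoot (1.05, SE 0.17, adjusted p = 0.0078). The neighbours of EXPB3, AT4G28200 (0.09) and AT4G28260 (0.15), did not pass in root. Neither did those of EXLA2, AT4G38380 (0.26, adjusted p = 0.0793) and AT4G38401 (-0.31, adjusted p = 0.308).

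Other genes of wall loosening and wall building were set beside the family. The counts of these lists and of the cell type markers stand beside all tested probe sets. Of those, 7.64% passed in root (4.63% higher, 3.01% lower) and 2.96% in shoot (1.49% higher, 1.47% lower). An unadjusted p under 0.05 was held by 17.5% of all in shoot, and that share was not counted in root. Of 15 probe sets for 14 alpha-expansins, 2 fell in root, EXPA4 by 0.53 (SE 0.09, adjusted p = 0.0033) and EXPA15 by 0.33 (adjusted p = 0.0497), and 13 did not pass, with a median of -0.18. The EXPA15 call ended in 16 of 23 alternatives. Among them was leaving out any 1 of 10 of the 12 libraries, all but aladin shoot replicates 1 and 2 (adjusted p up to 0.193). Others were single-gene probe sets alone (0.0506), a second quantile normalization (0.0548), the whole table (0.0694) and a replicate block over all libraries (0.0788). In shoot 1 fell, EXPA9, by 0.92 (SE 0.11, adjusted p = 0.0016), where its root difference was 0.30 (adjusted p = 0.149).

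Of 10 xyloglucan endotransglucosylases, enzymes that cut and rejoin the xyloglucan tethers of the wall, 1 rose and 2 fell in root, with a median of 0.11. XTH29 rose by 1.4 (SE 0.15, adjusted p = 1.1e-04), XTH32 fell by 0.68 (adjusted p = 0.0013) and XTH33 fell by 0.65 (adjusted p = 0.0062). In shoot XTH33 alone passed, with a fall of 1.39 (SE 0.12, adjusted p = 1.5e-04). The next list held 9 genes, cellulose synthase-like genes and COB, and no cellulose synthase itself. Of these 1 rose in root, CSLC04, which makes the glucan backbone of xyloglucan, by 0.97 (SE 0.10, adjusted p = 6.8e-05). In shoot none of the 9 passed by limma, with 1 at an unadjusted p under 0.05.

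Of 24 pectin and other wall hydrolases, most of them endoglucanases of the GH9 family, 4 fell in root and none rose, with a median of -0.12. These were GH9A3 (-0.70, adjusted p = 0.0167), GH9B17 (-0.43, adjusted p = 0.0270), BGAL16, a beta-galactosidase (-0.40, adjusted p = 0.0461), and GH9C2 (-0.35, adjusted p = 0.0270). Each of these 4 calls ended without any 1 of 4 to 8 libraries, with adjusted p values up to 0.0799 for GH9A3, 0.111 for GH9B17, 0.171 for BGAL16 and 0.125 for GH9C2. In shoot GH9B12 (-0.84, adjusted p = 0.0404; up to 0.118 when any 1 of 10 libraries was left out) and GH9B13 (-0.48, adjusted p = 0.0084) fell. Of 4 wall sensing genes none passed in either organ by limma. In shoot 0 had an unadjusted p under 0.05, beside 17.5% of all. FER, a receptor kinase that senses the growing wall, had 0.20 in root (unadjusted p = 0.0314, adjusted p = 0.189). The dim ANX2, a relative that acts in pollen tubes, had -0.26 in shoot (adjusted p = 0.362).

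Markers of cell types moved in part with the groups. Of 8 photosynthesis genes 3 rose in root: PSAE-1 of photosystem I by 1.38 (SE 0.09, adjusted p = 3.7e-06), RCA, Rubisco activase, by 0.61 (adjusted p = 0.0031) and SBPASE of the Calvin cycle by 0.58 (adjusted p = 0.0160, and up to 0.0742 without wild-type root replicate 2 or 3). The other 5 did not pass, with root differences of 0.56 (PORB), 0.13 (LHCB4.1), -0.14 (LHB1B2), -0.17 (LHCB4.3) and -0.53 (LHCB4.2, unadjusted p = 0.0096, adjusted p = 0.0916). The mean level over the 8 was 6.53 to 6.63 in the wild-type root libraries and 6.65 to 7.18 in those labelled aladin, against 10.62 to 10.83 in shoot. Of 4 root hair genes with a linked probe set none passed in either organ by limma. In shoot 1 had an unadjusted p under 0.05, beside 17.5% of all. EXPA7 (-0.29, unadjusted p = 0.0212, adjusted p = 0.148) and EXPA18 (-0.43, adjusted p = 0.374) were the nearest in root. The mean level of the list was 7.62 to 7.95 in wild-type and 7.57 to 7.68 in aladin root, against 6.24 to 6.4 in shoot. Of these 4 genes, EXPA7, EXPA18 and XTH26 also belong to the lists above. The other, SCN1, is part of that mean level but did not pass between wild-type root and shoot (0.05, limma adjusted p = 0.658).

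In shoot, of 4 stomatal lineage genes 2 fell, SPCH, which starts the lineage, by 0.82 (adjusted p = 0.0369) and MUTE, which ends its stem cell phase, by 0.93 (adjusted p = 0.0437). The probe set of MUTE was dim over the 12 libraries, with signals of 5.04 to 5.54 in wild-type shoot and 4.03 to 4.96 in shoot labelled aladin. The others, FMA (-0.10, adjusted p = 0.793) and STOMAGEN (0.09, adjusted p = 0.848), did not pass. The SPCH call ended without any 1 of 8 libraries and the MUTE call without any 1 of 11 (adjusted p up to 0.112 and 0.128). The mean level of the list in shoot was 7.21 to 7.44 in wild type and 6.78 to 6.95 in the libraries labelled aladin. LHCB4.3, a light-harvesting protein, fell by 0.67 in shoot (adjusted p = 0.0117) and was the only one of the 8 photosynthesis genes to pass there. The xylem list held 1 measured gene, GUT2, with 0.01 in root and 0.09 in shoot, and no marker of the endodermis and no structural wall protein of the lists was measured on a linked probe set. No marker is at 0 on this scale, and the part of these markers in the expansin differences was not tested.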

How the data were processed

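The authors deposited log2 values of 38408 probe sets in 12 libraries. RMA is named in the submitters' processing notes, without software or chip description, and the log2 scale was read from the range of the values. Genes were assigned through the platform annotation of the array, and the RefSeq gene table of the TAIR10.1 assembly gave symbols and neighbours. Groups came from the sample titles. With R 4.3.3 and limma 3.58.1, group means were fitted to all 12 libraries over the 17481 probe sets with at least 1 named gene (lmFit, eBayes; 8 residual and 3.67 prior degrees of freedom), with contrasts within organ, between organs and for the difference of effects. Values of p were adjusted by Benjamini-Hochberg over all 17481, with a threshold of 0.05, and intervals are at 95%. The small number of libraries per group limits the precision.

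The members and the gene lists were chosen with earlier results of these data known. PMEAMT, PRP39 and PRP39-2 matched a list by their letters only and were left out by function. All members were named; from each list the genes past the threshold in either organ were named, or the nearest where none passed. Likeness of pattern and chromosome neighbours followed fixed rules. The alternatives changed the prior, the treatment of dim probe sets and the set tested, 2 scalings, array weights, replicate blocks, 1 organ alone, a threshold of 0.01 and leaving out each library. Same-numbered libraries of different groups had deviations from the group means that correlated between -0.057 and 0.097, so the numbers were not taken to pair the libraries. Figures were drawn with Python 3.11 and matplotlib 3.10.9.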

Additional observations from a re-analysis of the deposited data

Results flagged for a closer look

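EXPB2 differed in its genotype effect between the organs by the test of that difference itself. Its root effect minus its shoot effect was -1.33 (SE 0.24, limma adjusted p = 0.0155), from a root difference of -1.81 and a shoot difference of -0.48. All 3 root libraries labelled aladin lay under all 3 of wild type, and the same held in shoot. The adjusted p of the difference of effects ran from 0.0041 to 0.0602 over 22 alternatives. The highest value came with the replicate block within each organ, where the call ended. None of the groups had more than 3 libraries, so no single library was tested as an outlier.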

How the results depend on the processing

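Of the values tried for members and named genes, 1343 kept their direction and their side of the threshold, 116 lost a call, 17 gained one and 9 changed sign, none of these 9 a called value. The sign changes occurred when 1 library was left out, where the shoot difference of EXPB5 ran from -0.05 to 0.14, that of EXLA3 from -0.21 to 0.01 and that of EXLB1 from -0.08 to 0.1, and the wild-type organ difference of EXPB4 from -0.03 to 0.08. Centring on the library median gave -0.06 for EXPB4 in the last comparison. The cause was not tested. The members passed in root numbered 4 to 6 in every alternative, 4 of 7 with dim probe sets left out, which removes EXLA3 and EXPB4. In shoot 2 members passed with a trend and robust prior and 0 to 1 when a library was left out. For the difference of effects 1 to 2 passed when a library was left out, and 0 at a threshold of 0.01.

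Over all probe sets tested, 1336 passed in root, 518 in shoot and 375 for the difference of effects. At a threshold of 0.01 these were 709, 126 and 125. Testing the whole table gave 2155 in root. Array weights gave 2700 in root and 202 in shoot, a trend and robust prior 862 in shoot and 594 for the difference of effects, and a fit on shoot alone 58. A fit on 1 organ alone also ended the calls of BGAL16, GH9B17 and SBPASE in root and of EXPA9, GH9B12, GH9B13, LHCB4.3, MUTE and SPCH in shoot. Array weights and testing the whole table each ended the shoot calls of GH9B12, MUTE and SPCH. Testing the whole table ended the root calls of EXPA15 and BGAL16 as well, and centring on the library median ended the shoot call of GH9B12. Leaving out 1 library gave 870 to 1415 in root, 282 to 460 in shoot and 211 to 374 for the difference of effects. The lowest counts came without aladin root replicate 2 (870), without wild-type shoot replicate 2 (282) and without wild-type root replicate 3 (211), and those without wild-type root replicate 3 (883 in root) or aladin shoot replicates 1 and 3 (305 and 293 in shoot) were also low.

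With the replicate number as a block over all libraries, 5 members passed in root, 0 in shoot and 1 for the difference of effects. The calls of EXPA15 and BGAL16 in root and of MUTE and SPCH in shoot ended there. With the replicate block within each organ, 4 members passed in root, EXPB3 losing its call (adjusted p = 0.0742), and 209 probe sets in shoot. That replicate block gave 242 probe sets for the difference of effects, and 0 members, since EXPB2 reached an adjusted p of 0.0602. The same block ended the calls of EXPA15, GH9C2, BGAL16, GH9A3 and GH9B17 in root and of GH9B13 (adjusted p = 0.0522), LHCB4.3 (0.0557), MUTE and SPCH in shoot. The organ comparisons were not fitted with that block. Samples share only a number, and whether same-numbered libraries were handled together is not stated. In root, deviations of same-numbered libraries of the genotypes correlated at 0.097, 0.016 and 0.058. Those of differently numbered ones correlated between -0.097 and 0.049. The block fits are therefore given as alternatives to the main model. Both other scalings moved the median of all probe sets by at most 0.09.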
